A study of Drosophila melanogaster with 9 samples.

Results

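The genes of the eukaryotic translation initiation factors were followed in whole Drosophila melanogaster embryos at dorsal closure. Members were all genes whose annotated symbol begins with eIF, each represented by the probe set with the highest mean. Of 44 such genes in RefSeq, 37 were measured with 43 probe sets, among 10844 genes on the arrays. The 7 others (eIF1A, eIF2alpha, eIF2gamma, eIF2D, eIF4B, eIF4EHP and eIF4H1) were not analysed here. The study asked which genes respond to JNK (Jun N-terminal kinase) signalling while the epidermis closes over the dorsal side. It hybridised 9 arrays, with 3 independent RNA samples per group. The WT group had the genotype w. GOF embryos were w;UAS-hepACT/+;69B/+, where 69B-GAL4 drives constitutively active Hep, the upstream kinase of JNK, in the ectoderm. LOF embryos were y w heprev75/y w hep1, a combination of hep alleles. All 3 groups carry w, and LOF embryos carry y in addition. Eggs were laid over 2 h and kept at 25 °C for about 9 h to stages 13 to 14. A collection was used if at least 85% of its embryos had reached these stages, and 2 µg of total RNA was labelled per array.

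Initiation factors bring a ribosome to the start codon of an mRNA. eIF2 delivers the initiator tRNA and is recharged with GTP by eIF2B, the exchange factor that is blocked when eIF2 is phosphorylated under stress. The multi-subunit eIF3 holds the small ribosomal subunit open for the mRNA. The cap-binding protein eIF4E, the scaffold eIF4G and the helicase eIF4A recruit that mRNA, while eIF5, eIF5B and eIF6 govern how the large subunit joins. Early fly embryos translate RNA and use factors supplied by the mother before zygotic transcripts take over, and several of these factors have additional gene copies in flies, some of them best known from the testis.

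Values are deposited linear intensities. Array medians lay between 688 and 709, and arrays correlated at 0.992 to 0.997 across genes within groups, at 0.989 to 0.994 between WT and LOF, and at 0.962 to 0.97 between WT and GOF. For hep itself the WT, GOF and LOF means were 3496 ± 586, 3376 ± 264 and 3494 ± 170 (SD, n = 3 arrays each). The sources used here do not say which part of hep its probes cover, so its level does not check the labels. puc, the JNK phosphatase gene induced by JNK, read 2304 ± 270, 6142 ± 761 and 1752 ± 55.7. All 9 measured markers of tissues of this stage (elav, repo, sage, grn, Gasp, peb, srp, en and twi) fell in GOF against WT. This is by the test described below, by which 20.1% of all genes fell. Of 16 markers of maternal and oocyte RNA, 12 had a positive change in GOF. By that test 10 of them rose and 1 marker fell, where 16.6% of all genes rose.

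A change is a difference of group means of log2(value + 1), with its standard error (SE) and a Benjamini-Hochberg adjusted p over all 10844 genes from limma, and a gene below 0.05 is called changed. The base with which the authors returned their log values to a linear scale is not stated. If it was e, every log2 change below should be multiplied by 0.693. The highest deposited value was 1331513, and 239 probe sets exceeded 65535, the largest number of a 16-bit scanner. Among them were eIF4A on all arrays, and eIF2A, eIF3e, eIF3f1, eIF3h, eIF3i and eIF3l on some arrays. For eIF2A, eIF3e, eIF3i and eIF3l these were GOF arrays only. Directions do not depend on the base. Fold changes are given under base 2 and, in second place, under base e. RNA came from whole embryos, so fewer cells of a type and less RNA per cell cannot be told apart.

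In GOF embryos initiation factor genes changed in both directions. Of 37 genes, 21 changed against WT, 10 up and 11 down, where 36.7% of all genes changed (16.6% rose and 20.1% fell). Rises were found among the eIF3 subunits, with 8 of 16, and in eIF2A and eIF5. Falls were found in eIF2beta, in 4 of 5 eIF2B subunits and in the cap-binding genes eIF4E1 and eIF4E3. eIF4G1, eIF5B, eIF6 and eIF3j fell as well. The median change over the 37 genes was 0.03, with a range from -1.77 to 0.91, against a median of -0.03 over all genes, so the set did not shift one way. On 14 genes all 3 GOF arrays lay above all 3 WT arrays and on 11 they lay below, which is 37.8% and 29.7% of the set, against 19.6% and 24.9% of all genes. Of the 21 calls, 10 held under every alternative setting that kept the gene (19, or 18 for eIF4E3, which the filter on dim genes removed), namely those of eIF2A, eIF2Balpha, eIF2Bgamma, eIF2Bepsilon, eIF3e, eIF3g1, eIF3i, eIF3l, eIF4E1 and eIF4E3. Without GOF replicate 2 the count was 13, and with cyclic loess 20 genes changed, 13 up and 7 down. The share over all genes counts dim genes too, whereas many members are bright. With the dimmest 40% of genes removed, 20 of the 29 members left changed, beside 3289 of all genes left.

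**Figure D1:**
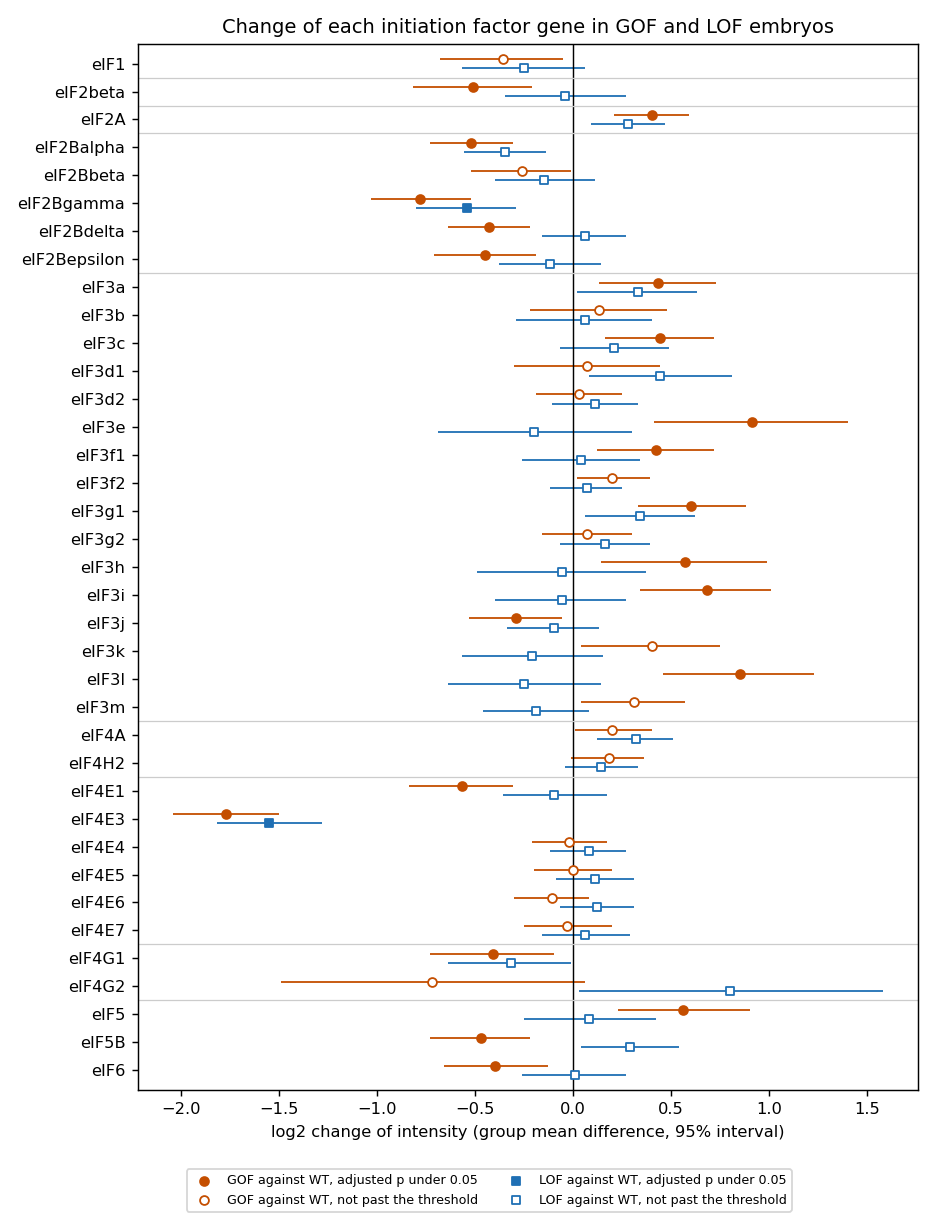
Log2 change of each of the 37 measured initiation factor genes in GOF (circles) and LOF (squares) against WT, with 95% intervals from limma; filled symbols have an adjusted p under 0.05, and grey lines part the factors. In GOF, eIF3 subunits lie mostly to the right and eIF2B subunits to the left of 0, and eIF4E3 lies far to the left in both groups.

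**Figure D2:**
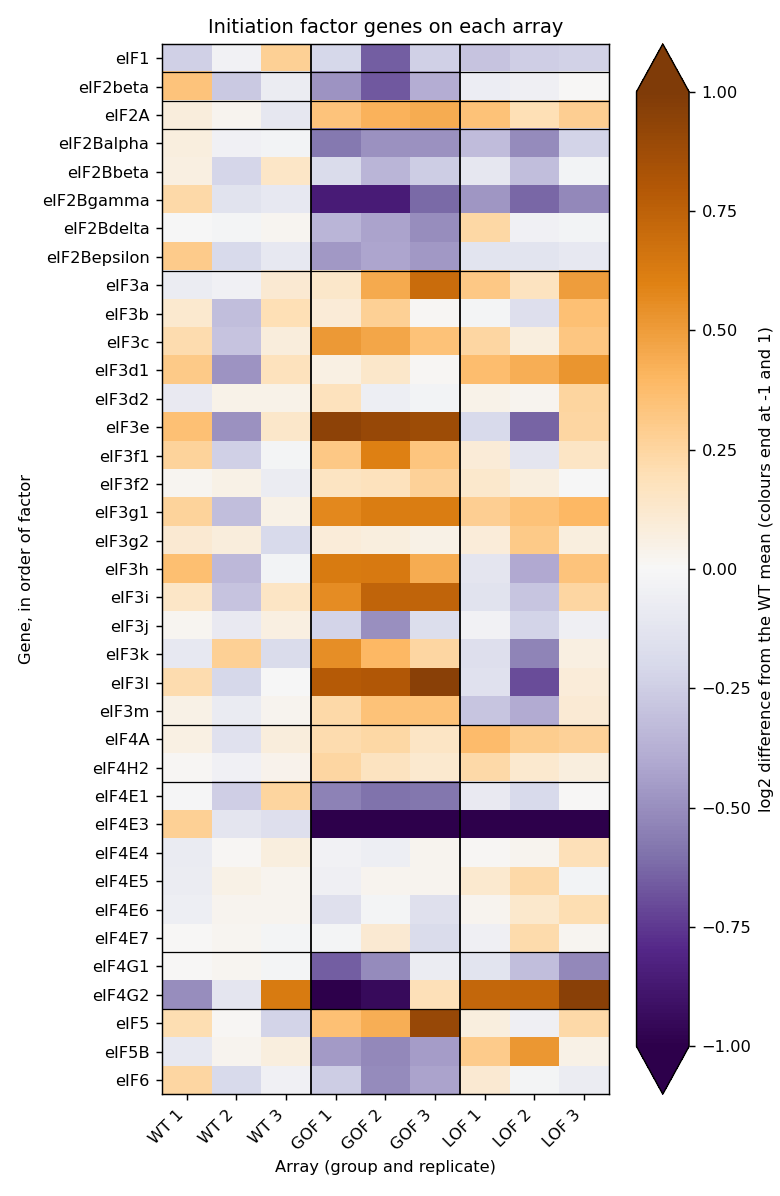
Log2 difference of each initiation factor gene (rows, ordered by factor) from its WT mean on each of the 9 arrays (columns); colours end at -1 and 1. On the GOF arrays most eIF3 rows are orange, eIF3j is purple and the eIF2B rows are purple. Many eIF3 rows are purple on WT replicate 2 and LOF replicate 2.

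Among the genes that supply the initiator tRNA, eIF2beta and 4 of 5 eIF2B subunits fell in GOF and eIF2A rose. eIF2beta, the only subunit of eIF2 measured, read 40588, 26598 and 30441 on the WT arrays, 22920, 20125 and 24519 on the GOF arrays and 30547, 30999 and 32064 on the LOF arrays. All 3 GOF arrays lay below WT and below LOF. The change against WT was -0.51 (SE 0.14, adjusted p = 0.0124, 1.43-fold lower, or 1.28-fold with base e), and it ended without GOF replicate 2 (adjusted p = 0.0563).

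All 5 subunits of eIF2B had lower means in GOF than in WT, with a median change of -0.45. The test was passed by 4 of them, where 20.1% of all genes fell. eIF2Bgamma, which with eIF2Bepsilon forms the catalytic part of the complex, changed most. It read 850, 659 and 674 on the WT arrays, 400, 398 and 469 on the GOF arrays and 521, 466 and 503 on the LOF arrays. The WT arrays overlapped neither of the other groups. Its change was -0.78 in GOF (SE 0.12, adjusted p = 0.000241, 1.71-fold lower, or 1.45-fold with base e) and -0.54 in LOF (SE 0.12, adjusted p = 0.0238, 1.46-fold or 1.30-fold). The LOF call ended when WT replicate 1 or any LOF array was left out (adjusted p up to 0.106).

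eIF2Balpha, a regulatory subunit that senses phosphorylated eIF2, read 2965, 2730 and 2765 in WT, 1890, 2005 and 2012 in GOF and 2250, 1974 and 2419 in LOF. Its GOF arrays were all below WT (change -0.52, SE 0.10, adjusted p = 0.00107), as were its LOF arrays, where the test was not passed (-0.35, adjusted p = 0.0605). eIF2Bepsilon, the subunit with the exchange activity, read 4363, 3091 and 3309 in WT, 2571, 2649 and 2575 in GOF and 3236, 3239 and 3319 in LOF. It fell in GOF by 0.45 on the log2 scale (SE 0.12, adjusted p = 0.00997) and overlapped WT in LOF.

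eIF2Bdelta, another regulatory subunit, read 8274, 8182 and 8400 in WT, 6475, 6162 and 5837 in GOF and 9801, 8023 and 8146 in LOF. GOF lay below both other groups (change against WT -0.43, SE 0.10, adjusted p = 0.00409). A dim second probe set of the gene, at 87 to 117 on all arrays, showed no such difference (-0.07, adjusted p over probe sets 0.767), and the call ended when both sets were averaged (-0.25, adjusted p = 0.0802). eIF2Bbeta, the remaining subunit, had a change of -0.26 in GOF (adjusted p = 0.103) and overlapped WT in both groups.

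eIF2A and eIF1 bear on the same step. eIF2A, a single-chain protein that can bring initiator tRNA without eIF2, read 54045, 51937 and 47495 in WT, 64570, 68409 and 69424 in GOF and 64839, 58802 and 62249 in LOF. Every GOF and LOF array lay above WT. Its change was 0.40 in GOF (SE 0.09, adjusted p = 0.00335, 1.32-fold, or 1.21-fold with base e) and 0.28 in LOF, not past the threshold (SE 0.09, adjusted p = 0.101). For eIF1, which guards start codon choice, the WT, GOF and LOF means were 17508 ± 3210, 13582 ± 2230 and 14519 ± 345, and neither change passed (-0.36, adjusted p = 0.0722, and -0.25, adjusted p = 0.36).

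The eIF3 subunits were the largest group and rose in GOF in 8 of 16 cases, with 1 fall, beside 16.6% and 20.1% of all genes. Their median change was 0.41. Setting aside the extra copies eIF3d2, eIF3f2 and eIF3g2, 12 of 13 main subunits had a higher mean in GOF than in WT. All GOF arrays lay above WT for 10 of 16 members, eIF3f2 included, beside 19.6% of all genes. eIF3e, a subunit first known as Int6, rose most. It read 47823, 26688 and 41232 in WT, 71983, 70147 and 68910 in GOF and 32631, 24138 and 44437 in LOF. The GOF arrays stood close together above all others (change against WT 0.91, SE 0.23, adjusted p = 0.00727, 1.88-fold, or 1.55-fold with base e).

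eIF3l, a peripheral subunit that pairs with eIF3k, read 51078, 38269 and 43946 in WT, 76195, 76691 and 85773 in GOF and 39995, 27181 and 46989 in LOF. GOF was again above both other groups, with a change of 0.85 (SE 0.18, adjusted p = 0.00243, 1.8-fold, or 1.5-fold with base e). eIF3i, a WD-repeat subunit that binds eIF3b, read 48782, 35888 and 48849 in WT, 65048, 73416 and 73518 in GOF and 40013, 36086 and 52202 in LOF (change 0.68, SE 0.15, adjusted p = 0.00405). WT and LOF overlapped for this gene. eIF3g1, an RNA-binding subunit that joins the same module, read 18384, 12320 and 15882 in WT, 22824, 23508 and 23584 in GOF and 18661, 19480 and 20146 in LOF. Its 3 groups did not overlap, with LOF between WT and GOF (GOF change 0.60, SE 0.13, adjusted p = 0.00256, and LOF change 0.34, SE 0.13, adjusted p = 0.164).

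The other rises in GOF were those of eIF3h (0.57, adjusted p = 0.0387), eIF3c (0.44, adjusted p = 0.017), the scaffold eIF3a (0.43, adjusted p = 0.0294) and eIF3f1 (0.42, adjusted p = 0.0309). Each of these 4 calls ended in 3 to 8 of the 19 alternatives. eIF3h had a second, dimmer probe set with a change of 0.06 (adjusted p over probe sets 0.911). The subunits were also grouped by domain, a grouping chosen after the values were seen. The 8 subunits with a PCI or MPN domain form the shell of the complex in mammals. Of these, 6 rose (median 0.44), where 16.6% of all genes did. eIF3k (0.40, adjusted p = 0.0805) and eIF3m (0.31, adjusted p = 0.0748) were the remaining members. Of the 5 others, eIF3i and eIF3g1 rose and eIF3j fell (-0.29, adjusted p = 0.0485). That factor associates loosely with the complex, and its call ended in 11 alternatives. eIF3b read 28094 ± 5120 in WT and 30457 ± 2920 in GOF, and eIF3d1, a cap-contacting subunit in mammals, 33709 ± 9040 and 34438 ± 1580, with changes of 0.13 (95% interval -0.22 to 0.48) and 0.07 (-0.30 to 0.44).

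In none of the 16 eIF3 genes did LOF pass the test in limma, where 3 had an unadjusted p under 0.05 and 0 passed in any alternative. Changes ran from -0.25 for eIF3l to 0.44 for eIF3d1, which read 40587, 23473 and 37068 in WT and 42440, 44292 and 47364 in LOF (SE 0.17, adjusted p = 0.168). Compared directly, GOF was higher than LOF in 7 of 16 eIF3 genes and lower in 0, beside 17.7% and 19.4% of all genes. The largest of these differences were those of eIF3l (1.10, SE 0.18, adjusted p = 0.000395) and eIF3e (1.10, SE 0.23, adjusted p = 0.00211). eIF3i (0.74, adjusted p = 0.0023), eIF3h (0.63, adjusted p = 0.024), eIF3k (0.61, adjusted p = 0.0112), eIF3m (0.50, adjusted p = 0.00699) and eIF3f1 (0.38, adjusted p = 0.049) followed.

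Single arrays weighed on the eIF3 values. Of the 13 main subunits, 11 had their lowest WT value on WT replicate 2 and 11 their lowest LOF value on LOF replicate 2, while 12 had their highest LOF value on LOF replicate 3. Without WT replicate 2, the change of eIF3e in GOF was 0.66 (adjusted p = 0.0276), that of eIF3l 0.75 (adjusted p = 0.0127), that of eIF3i 0.53 (adjusted p = 0.0162) and that of eIF3g1 0.45 (adjusted p = 0.00462). With both of these low arrays left out, an alternative chosen after seeing the data, 6 eIF3 genes rose and 0 fell in GOF. Without WT replicate 2 alone 5 rose and 1 fell, without GOF replicate 2 the counts were 4 and 0, and against LOF the count of 7 became 4 without LOF replicate 2.

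**Figure D3:**
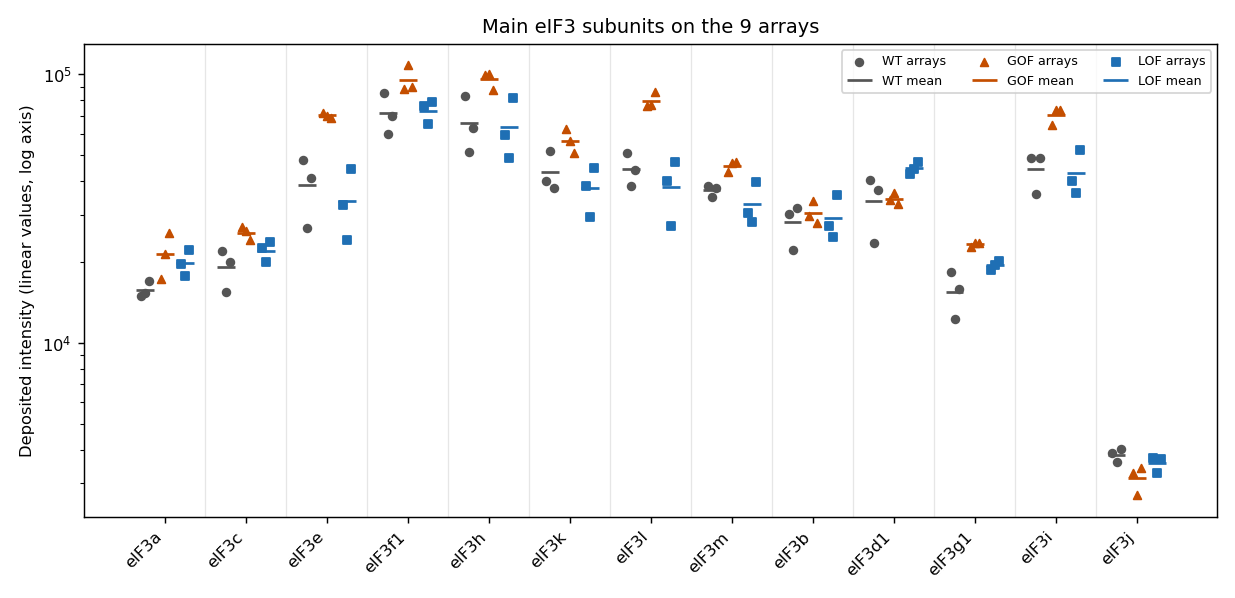
Deposited intensity (log axis) of the 13 main eIF3 subunits on each of the 9 arrays, with group means as lines; the first 8 genes have a PCI or MPN domain. For eIF3e, eIF3i and eIF3l the 3 GOF arrays lie above all WT and LOF arrays, whereas eIF3b and eIF3d1 overlap between WT and GOF.

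The extra copies of eIF3 subunits, known in flies as paralogues of main subunits, did not pass the test in any comparison. eIF3d2 read 194 to 213 in WT, 198 to 233 in GOF and 210 to 247 in LOF, and eIF3g2 140 to 174, 166 to 171 and 169 to 199. eIF3f2 was above WT on all GOF arrays (531 to 581 against 626 to 675), by 0.20 (adjusted p = 0.0852), a difference that passed with cyclic loess.

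Among the factors that recognise the mRNA cap, eIF4E3 had the largest change of the 37 genes measured. This paralogue of the cap-binding protein is known from the fly testis, where it serves spermatogenesis. It read 881, 668 and 649 on the WT arrays, 226, 209 and 202 on the GOF arrays and 251, 269 and 225 on the LOF arrays. No GOF or LOF array came near the WT arrays. The change was -1.77 in GOF (SE 0.12, adjusted p = 6.95e-07, 3.41-fold lower, or 2.34-fold with base e) and -1.55 in LOF (SE 0.12, adjusted p = 7.83e-05, 2.92-fold or 2.10-fold). Both comparisons share the WT arrays. GOF and LOF overlapped, and their difference was -0.22 (95% interval -0.49 to 0.05, adjusted p = 0.192). Both falls held under the 18 alternatives that kept the gene, with adjusted p-values up to 3.15e-05 in GOF and 0.0044 in LOF.

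eIF4E1, the main cap-binding protein of the fly, fell in GOF and did not pass the test in LOF. It read 30660, 26002 and 36813 in WT, 21179, 20420 and 20570 in GOF and 28949, 26815 and 30952 in LOF. The GOF arrays lay close together below every WT and LOF array. The change was -0.57 against WT (SE 0.12, adjusted p = 0.00251, 1.49-fold lower, or 1.32-fold with base e) and -0.48 against LOF (SE 0.12, adjusted p = 0.00765), and that of LOF against WT was -0.10 (95% interval -0.36 to 0.17, adjusted p = 0.706).

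The other measured paralogues gave only dim signals. eIF4E4 read 61, 65 and 68 in WT, 63, 62 and 66 in GOF and 65, 66 and 74 in LOF, and eIF4E5 read 54, 59 and 58, then 55, 58 and 58, then 62, 67 and 56. eIF4E6 read 79, 84 and 84 in WT, 74, 81 and 74 in GOF and 84, 90 and 95 in LOF, and eIF4E7 read 84, 85 and 83, then 83, 91 and 74, then 81, 98 and 85. Their probe sets stood among the lowest 4.39% to 10.3% of all probe sets by mean, and the lowest deposited value was 29. At such signals the arrays may show background rather than RNA, and the file holds no detection call. Against WT, none of these 4 genes passed in limma in GOF or LOF, with 0 at an unadjusted p under 0.05, and their intervals stayed between -0.30 and 0.31. eIF4E6 was lower on all GOF than on all LOF arrays, by 0.23 on the log2 scale, without passing the test (adjusted p = 0.0584).

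The 5 genes whose log2 values followed those of eIF4E3 most closely over the 9 arrays, by Pearson correlation, were Ance (0.989), NaPi-III (0.985), Gmppb (0.981), phu (0.979) and Tektin-C (0.976). These 9 points share the arrays with eIF4E3 and fall into 3 groups. Ance, a peptidase gene of the amnioserosa, had WT, GOF and LOF means of 39337 ± 5360, 18431 ± 1030 and 21580 ± 2570. Tektin-C, which encodes a microtubule protein of cilia and flagella, read 1160 ± 164, 96.3 ± 8.02 and 113 ± 9.85. phu read 574 ± 180, 155 ± 31.5 and 205 ± 34.9. Since they were chosen for following eIF4E3, which was lower in both groups, their own falls are given as a description.

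Genes of the male germ line went different ways as a list. Of 14 measured, Tektin-C fell in both groups, bol fell in GOF (-0.79) and rose in LOF (0.57), bam (1.40) and mip40 (0.76) rose in GOF, and the others did not pass. These calls are 28.6% of the list in GOF and 14.3% in LOF, beside 36.7% and 4.72% of all genes. Several genes were dim in WT already, such as dj (mean 46.7), comr (59.3) and can (66.7). In such genes a fall like that of eIF4E3 could hardly show. The summed intensity of the list was 31931 to 32986 in WT, 28609 to 30244 in GOF and 39506 to 41208 in LOF. Most of it came from bol (WT, GOF and LOF means 19860, 11479 and 29445) and mip40 (8383, 14178 and 7484). Among the testis genes that did not pass, group means ran from 43 for dj in LOF to 1071 for Mst87F in GOF. The part of this list in the change of eIF4E3 was not tested.

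The scaffold genes varied more. eIF4G1, the main scaffold, read 9470, 9550 and 9301 in WT, 6010, 6628 and 8954 in GOF and 8645, 7572 and 6597 in LOF. Both groups lay below the tight WT arrays. The change was -0.41 in GOF (SE 0.14, adjusted p = 0.0415), a call that ended in 10 of 19 alternatives, among them the omission of any single WT array or of GOF replicate 1 or 2 (adjusted p up to 0.157), and -0.32 in LOF (SE 0.14, adjusted p = 0.242).

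eIF4G2, a relative needed for meiosis in the fly testis, read 424, 553 and 932 in WT, 227, 314 and 687 in GOF and 993, 999 and 1170 in LOF. WT and GOF overlapped, whereas every LOF array lay above every other array. The change was -0.72 in GOF (SE 0.35, adjusted p = 0.147) and 0.80 in LOF (SE 0.35, adjusted p = 0.235), neither past the threshold. The direct difference of GOF from LOF was -1.52 (SE 0.35, adjusted p = 0.00488, 2.87-fold lower, or 2.08-fold with base e) and held under all alternatives. Against WT, GOF passed without GOF replicate 3 (-1.17, adjusted p = 0.00389) and with the replicate number as a block (-0.72, adjusted p = 0.0191).

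The helicase eIF4A, which unwinds the leader of the mRNA, read 479851, 417858 and 488536 in WT, 536287, 542557 and 513308 in GOF and 600627, 564930 and 557111 in LOF. The groups were in the order WT, GOF, LOF without overlap, but neither change passed. That of GOF was 0.20 (SE 0.09, adjusted p = 0.105), and that of LOF was 0.32 (SE 0.09, adjusted p = 0.0701). With cyclic loess or a pseudocount of 50 the LOF change did. eIF4H2, a helper of the helicase, was dim, at 58 to 71 on all arrays.

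**Figure D4:**
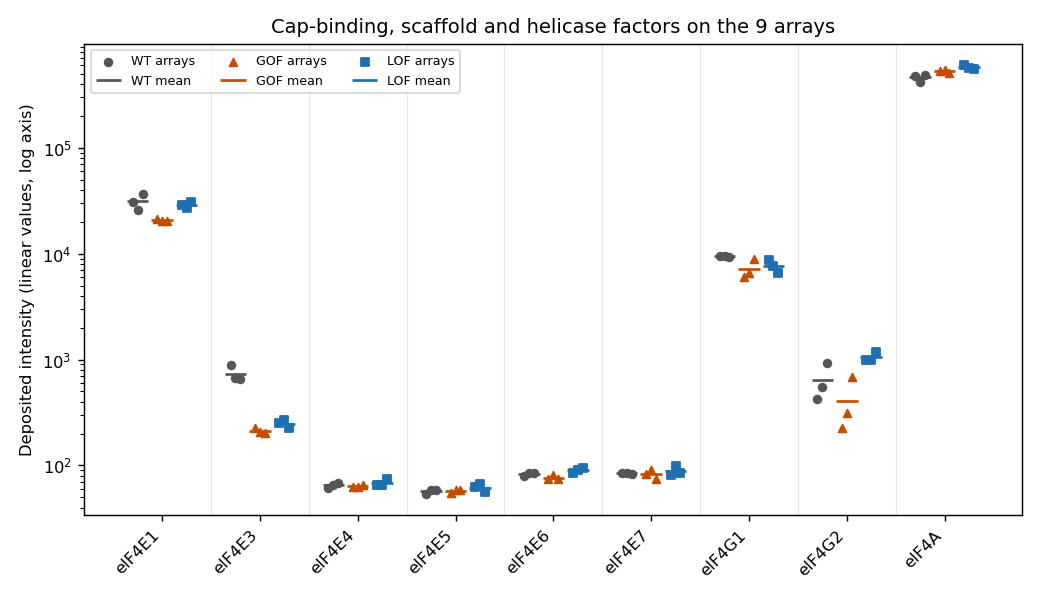
Deposited intensity (log axis) of the cap-binding, scaffold and helicase genes on each of the 9 arrays, with group means as lines. eIF4E3 is lower on all GOF and LOF arrays than in WT, eIF4E1 is lower on the GOF arrays than on all others, eIF4E4 to eIF4E7 stay below 100, and the LOF arrays of eIF4G2 lie above all others.

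The factors of subunit joining moved in opposite directions in GOF. eIF5, which triggers GTP hydrolysis on eIF2 once the start codon is found, read 9625, 8414 and 7170 in WT, 10660, 11272 and 15624 in GOF and 8778, 8045 and 9799 in LOF. GOF lay above both other groups, by 0.56 against WT (SE 0.15, adjusted p = 0.0124), and without WT replicate 3 the call ended (adjusted p = 0.0571). GOF replicate 3 was the highest, and without it the difference from LOF went from 0.48 (adjusted p = 0.0284) to 0.31 (adjusted p = 0.0991).

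eIF5B, the GTPase that joins the large subunit, read 34591, 37697 and 38906 in WT, 26969, 25878 and 27160 in GOF and 45648, 53132 and 38285 in LOF. It was lower on every GOF array than on any other, by 0.47 on the log2 scale against WT (SE 0.12, adjusted p = 0.0065) and by 0.76 against LOF (SE 0.12, adjusted p = 0.00025). The fall against WT ended with cyclic loess (adjusted p = 0.0588). Its 3 probe sets all had lower means in GOF than in WT, with changes of -0.47, -0.33 and -0.15, and only the first passed over probe sets. In LOF they were 0.29, 0.22 and 0.55, and the last, which does not stand for the gene, passed (adjusted p over probe sets 0.0475).

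eIF6, which keeps the large subunit from joining too early, read 5937, 4341 and 4841 in WT, 4199, 3502 and 3728 in GOF and 5400, 4941 and 4736 in LOF. It fell in GOF by 0.40 on the log2 scale (SE 0.12, adjusted p = 0.0238), whereas LOF differed from WT by 0.01 (95% interval -0.26 to 0.27). Its dimmer second probe set, at 1558 to 1994 on the arrays, had a change of -0.06 (adjusted p over probe sets 0.731), and the call ended in 5 alternatives.

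Few initiation factor genes passed the test in LOF embryos. In LOF against WT, 2 of 37 passed, eIF4E3 and eIF2Bgamma, both lower, which is 5.41% of the set against 4.72% of all genes (1.36% rose and 3.37% fell). The share was near that of all genes. The median change was 0.06, against 0.02 over all genes, and 11 genes had an unadjusted p under 0.05. All LOF arrays lay above WT for 7 genes and below for 4, beside 13.1% and 12.5% of all genes. The count was 1 without WT replicate 1 or without any LOF array. It was 3 with quantile normalization, where eIF2Balpha joined. With cyclic loess or a pseudocount of 50 it was 4, where eIF2Balpha and eIF4A both joined.

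The direct comparison of GOF with LOF, which uses no WT array, gave 15 changed genes of 37, 8 higher and 7 lower in GOF, beside 37.1% of all genes (17.7% higher and 19.4% lower). All GOF arrays lay above LOF for 11 genes and below for 10, beside 19.9% and 29.6% of all genes. The 8 higher ones were the 7 eIF3 genes given above and eIF5. The lower ones were eIF4G2, eIF5B, eIF2Bdelta (-0.49, adjusted p = 0.00179), eIF4E1, eIF2beta (-0.47, adjusted p = 0.0187), eIF6 (-0.40, adjusted p = 0.0221) and eIF2Bepsilon (-0.33, adjusted p = 0.0464). Without LOF replicate 2 the count was 9, and with cyclic loess 16 genes changed, 11 higher and 5 lower.

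Other genes that act on translation were read from a list. Of 36 genes, 26 were measured, and in GOF 12 rose and 3 fell against WT, with a median of 0.26, beside 16.6% and 20.1% of all genes that rose and fell. Regulators of eIF2 were among the rises. PEK, the kinase that phosphorylates eIF2 when the endoplasmic reticulum is stressed, had WT, GOF and LOF means of 2153, 9277 and 2886, a change of 2.08 in GOF (adjusted p = 1.56e-06). PPP1R15, which directs a phosphatase to eIF2, rose by 1.08 (adjusted p = 4.35e-06). Gcn2, the eIF2 kinase of amino acid shortage, named here after its value was seen, rose by 0.89 (adjusted p = 0.000405) from a dim 136 to 255. Paip2, an inhibitor of the poly(A)-binding protein (1.30, adjusted p = 1.78e-06), and me31B, a repressor of stored mRNAs (1.28, adjusted p = 1.26e-05), rose too. eRF3, the GTPase of termination (-0.87, adjusted p = 1.43e-05), the meiotic RNA-binding gene bol (-0.79, adjusted p = 5.14e-05) and the kinase gene Akt (-0.86, adjusted p = 0.00109) fell. The gene Thor, which encodes the inhibitor of eIF4E, was not analysed here.

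In LOF 3 of these 26 genes rose and 0 fell, beside 1.36% and 3.37% of all genes. They were bol (0.57, adjusted p = 0.00849), Lk6, the kinase of eIF4E (1.0, adjusted p = 0.0233), and NAT1, a relative of eIF4G (0.73, adjusted p = 0.0285). Lk6 rose in GOF as well (1.24, adjusted p = 0.000657), and its difference between GOF and LOF did not pass (0.24, adjusted p = 0.426). The LOF count was 1 without any single one of WT replicates 1 and 2 and the LOF arrays, and 0 with WT and LOF replicate 2 both left out. It was 5 without WT replicate 3, and 6 without GOF replicate 3 or with the arrays of WT and LOF alone. In GOF compared with LOF, where 17.7% of all genes were higher and 19.4% lower, 11 were higher, with PEK (1.65), Paip2 (1.15), PPP1R15 (1.03) and pum, a repressor of maternal mRNA (1.73), and 9 lower, with bol (-1.36), eRF3 (-0.53), NAT1 (-0.88) and Akt (-0.69).

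Several markers of other RNA sources also changed in GOF. The summed intensity of 16 maternal and oocyte genes was 11155 to 11903 in WT, 26909 to 41924 in GOF and 11573 to 13997 in LOF. In GOF 10 of them rose, led by bcd, twe, smg and swa, and gcl fell, beside 16.6% and 20.1% of all genes. With the dimmest 40% of genes removed, 7 of the 16 were left, of which 3 rose and 1 fell. In LOF 4 rose (twe, swa, smg and dhd), beside 1.36% of all genes, and 1 rose without WT replicate 1, LOF replicate 1 or LOF replicate 2. Of 8 germ-line genes, 5 rose in GOF, where 16.6% of all genes did, and their sum was 4777 to 5009 in WT, 15162 to 19242 in GOF and 5959 to 6595 in LOF. The sum of the 9 tissue markers of this stage was 22099 to 25193 in WT, 9311 to 11589 in GOF and 18704 to 20604 in LOF. All 9 fell in GOF, where 20.1% of all genes did. In LOF en alone passed and was lower, beside 3.37% of all genes that fell. That call ended without WT replicate 1, LOF replicate 2 or LOF replicate 3. Of 6 measured genes tied to sex (Sxl, msl-2, tra, Yp1, Yp2 and Yp3), Sxl fell in GOF and 0 passed in LOF. Of all genes 20.1% fell in GOF and 4.72% changed in LOF. As roX1 and roX2 were not measured, these values do not check the sex composition of the groups. No marker could read 0, since the lowest deposited value was 29, and dim markers may show background. GOF replicate 1 had the lowest maternal sum of its group. The part of these RNA sources in the changes of the initiation factors was not tested.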

How the data were processed

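Per the labels, biotin-labelled RNA of whole embryos was hybridised to 9 Affymetrix 1-colour arrays. The authors made the deposited intensity values with RMA, per the submitters' processing notes, and the values are linear whole numbers. Their RMA version, its settings and the base of the return from log scale are not stated. Of 14010 probe sets, 12443 have 1 gene in the platform annotation, 327 several, 1196 are unnamed here and 44 are controls. Symbols were updated through the gene number with RefSeq (Release 6 plus ISO1 MT), and 41 symbols without a match were kept. The probe set with the highest mean log2 value stands for a gene.

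log2(value + 1) was fitted for 10844 genes with 1 mean per group over all 9 arrays in limma 3.58.1 (R 4.3.3, lmFit, eBayes), with 6 residual degrees of freedom and 5.39 from the prior, two-sided, with Benjamini-Hochberg adjustment over all genes, and was tested on simulated data. Second probe sets were fitted over all 14010. The 3 arrays per group limit the precision, and the median SE of a change was 0.11. The members, gene lists and alternatives were chosen with earlier results of these data known. Every array value is given for the eIF4E paralogues, the genes changed in LOF, and in each factor group up to 4 genes with the largest GOF change. Of the other translation genes, up to 4 per direction with the smallest p are named. For an eIF4E paralogue called in LOF, the 5 most correlated genes are named. No genome position and no sequence was used here. The labels state no pairing by replicate number. Deviations of arrays with the same number correlated at -0.18 to 0.187 between groups, and at 0.067 to 0.187 between WT and LOF. With 3 arrays per group these values cannot settle whether the numbers pair the samples.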

Additional observations from a re-analysis of the deposited data

How the results depend on the processing

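Of the 21 eIF genes changed in GOF against WT, 10 kept their call under every alternative that kept the gene, of 2 in LOF 1 did, and of 15 in GOF against LOF 7 did. There were 19 alternatives, of which eIF4E3 entered 18. No called change reversed, and 6, 2 and 5 further genes passed in at least 1 alternative. In GOF the count lay between 13 (without GOF replicate 2) and 21 when single arrays were left out, in LOF between 1 and 2, and in GOF against LOF between 9 (without LOF replicate 2) and 17. In LOF the count was 4 with cyclic loess and with a pseudocount of 50, and 1 with the dimmest 40% of genes removed, which removed 8 of the 37 members. With WT and LOF replicate 2 left out together, chosen after seeing the data, the counts were 18, 1 and 12. With the replicate number as a block the counts were 22, 2 and 13, so this pairing moved none of them by over 1.5 times. The block added eIF4G2 (adjusted p = 0.0191) and eIF2Bbeta (adjusted p = 0.0455) and ended eIF4G1 (adjusted p = 0.0658) in GOF, and ended eIF2Bepsilon (adjusted p = 0.0549) and eIF3f1 (adjusted p = 0.0653) in GOF against LOF. It raised the LOF count of the other translation genes from 3 to 5. The share of rises among called genes was 47.6% in GOF and 65% with cyclic loess, and 53.3% and 68.8% in GOF against LOF. For all genes, LOF gave 512 changes, 138 without WT replicate 1 and 161 without LOF replicate 2. Averaging the probe sets of a gene ended the GOF calls of eIF2Bdelta, eIF3h and eIF6. In natural logarithms the calls were as many (21, 2 and 15). Dim signals limit what can be read for eIF4E4 to eIF4E7 and eIF4H2.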
